A study of Mus musculus with 4 samples.

Results

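Prom2, Arnt2, Mdga2, Mark1, Pdzrn3 and Podn were among the 20 genes called higher in mouse colon tumours labelled Gsk3b IEC-/- than in those labelled IEC+/+. They were 6 of the 26214 gene symbols listed for each library, and all 6 passed the filter on low counts, as did 16637 genes in all. The genes were chosen by name from the contrast described here: each was called higher in IEC-/- (adjusted p under 0.05, edgeR quasi-likelihood test) with no overlap between groups. Their fold changes are therefore given as a description, with no test. All 4 libraries were polyadenylated RNA of colon cancer tissue from mice in which tumours had been induced with AOM, a carcinogen, and DSS, which injures the colonic lining. Of these, 2 libraries were labelled Gsk3b IEC-/-, for loss of the kinase gene Gsk3b in intestinal epithelial cells, and 2 were labelled Gsk3b IEC+/+. The Cre driver, the deleted exons, the strain, the age and whether each library was a mouse of its own were not stated in the sources used here, so p-values measure the spread between these samples only. Total counts were 25472503 to 27218515 per library.

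The 6 genes belong to different families. Prom2 encodes prominin-2, a cholesterol-binding membrane glycoprotein of epithelial cell protrusions. Arnt2 encodes a bHLH-PAS transcription factor best known from brain and kidney, which pairs with factors such as SIM1, NPAS4 and the hypoxia-inducible factors. Mdga2 encodes a membrane-anchored immunoglobulin-type protein that binds neuroligins and keeps neurexins from them. Mark1 encodes a PAR-1 family kinase that is switched on by LKB1 and phosphorylates the microtubule proteins tau, MAP2 and MAP4, and GSK3B has been reported to phosphorylate its relative MARK2. Pdzrn3 encodes a RING and PDZ ubiquitin ligase with known targets in planar Wnt signalling (DVL3) and at the neuromuscular junction (MuSK). Podn encodes podocan, a small leucine-rich proteoglycan of the extracellular matrix that is known to restrain smooth muscle cell growth.

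Library composition differed between the samples before any gene was considered. IEC-/- replicate 2 stood apart, with 2780 CPM (counts relative to the scaled library size) over 8 squamous keratinocyte markers, against 40.1 CPM in IEC-/- replicate 1 and 152 and 129 CPM in the IEC+/+ pair. The same library had 2535 CPM over 5 B and plasma cell markers, against 222 CPM in the other IEC-/- library and 584 and 700 CPM in the IEC+/+ pair. Gsk3b itself had 152 and 149 CPM in the IEC-/- pair, against 170 and 157 CPM in the IEC+/+ pair (log2 fold change -0.12, SE 0.12, edgeR adjusted p = 0.681). The tissue holds cells other than epithelium and a deletion of a few exons can leave the count in place, so the count of this gene is a weak check of the labels.

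Prom2 was the most changed of the 6. It had 20.9 and 22.1 CPM in the IEC-/- pair, against 7.29 and 5.79 CPM in the IEC+/+ pair, a 3.28-fold higher level (log2 fold change 1.71, SE 0.23). Arnt2 had 62.3 and 51.2 CPM in the IEC-/- pair and 16.8 and 19.3 CPM in the IEC+/+ pair, 3.15-fold higher (1.65, SE 0.16). For both genes the lower IEC-/- library lay well above the higher IEC+/+ library, by a ratio of 2.86 for Prom2 and 2.65 for Arnt2.

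Mdga2, Mark1, Pdzrn3 and Podn were 2.29-fold to 2.53-fold higher. Mdga2 had 44.1 and 42.7 CPM in the IEC-/- pair, against 18.3 and 16.1 CPM in the IEC+/+ pair (log2 fold change 1.34, SE 0.15). Mark1 had 78.2 and 65.6 CPM in the IEC-/- pair, against 31.0 and 27.9 CPM in the IEC+/+ pair (1.29, SE 0.14). In both genes the IEC-/- libraries formed a separate upper pair, and the IEC-/- libraries of Mark1 were further from each other than those of Mdga2. Pdzrn3 had 50.4 and 47.7 CPM in the IEC-/- pair, against 21.1 and 20.5 CPM in the IEC+/+ pair (1.24, SE 0.13). Podn had 89.7 and 92.3 CPM in the IEC-/- pair, against 43.4 and 36.1 CPM in the IEC+/+ pair (1.20, SE 0.14). Podn was the most abundant of the 6 by counts, and Prom2 the least. Replicates of a group lay close: replicate 1 was 0.947 to 1.22 times replicate 2 in IEC-/- over the 6 genes, and 0.868 to 1.26 times in IEC+/+. Groups that do not overlap were common, since 24.0% of all tested genes had both IEC-/- libraries above both IEC+/+ libraries, and 0.12% of tested genes were called higher. Nothing is read from the members' own count of 6 of 6, as these values chose them.

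**Figure D1:**
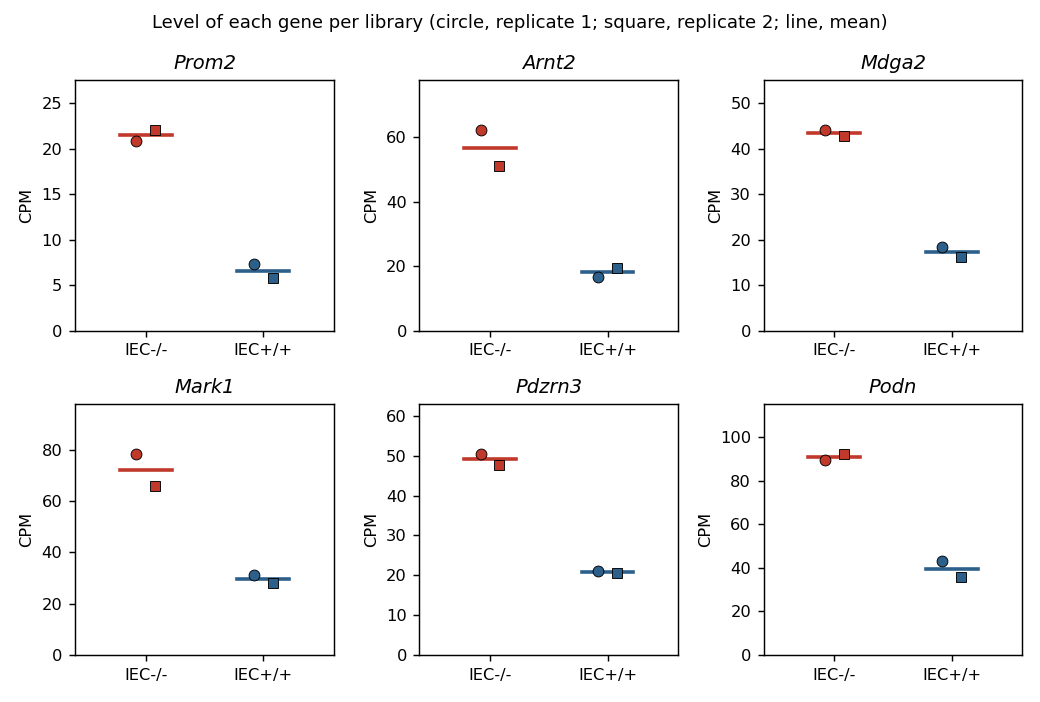
Level of each gene in CPM (y axis, from 0) in the IEC-/- and IEC+/+ libraries (x axis), with circles for replicate 1, squares for replicate 2 and a line at the group mean. In all 6 panels both IEC-/- libraries lie above both IEC+/+ libraries, with fold changes of 2.29 (Podn) to 3.28 (Prom2).

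The 6 genes were not the most raised of all genes, nor of the called genes. By fold change alone the 6 ranked 336 (Prom2), 364 (Arnt2), 561 (Mdga2), 605 (Mark1), 649 (Pdzrn3) and 692 (Podn) of 16637. As many as 552 genes with at least 1 CPM in the IEC-/- pair had a log2 fold change at or above that of Podn, and 12 of these were called. The standard error of those 552 genes had a median of 0.64, while the 6 genes had 0.13 to 0.23. No more than 9 of the 552 had a standard error as small as the largest of the 6 (0.23). The 6 were thus genes with a moderate difference and a small error, and both quantities entered their selection.

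**Figure D2:**
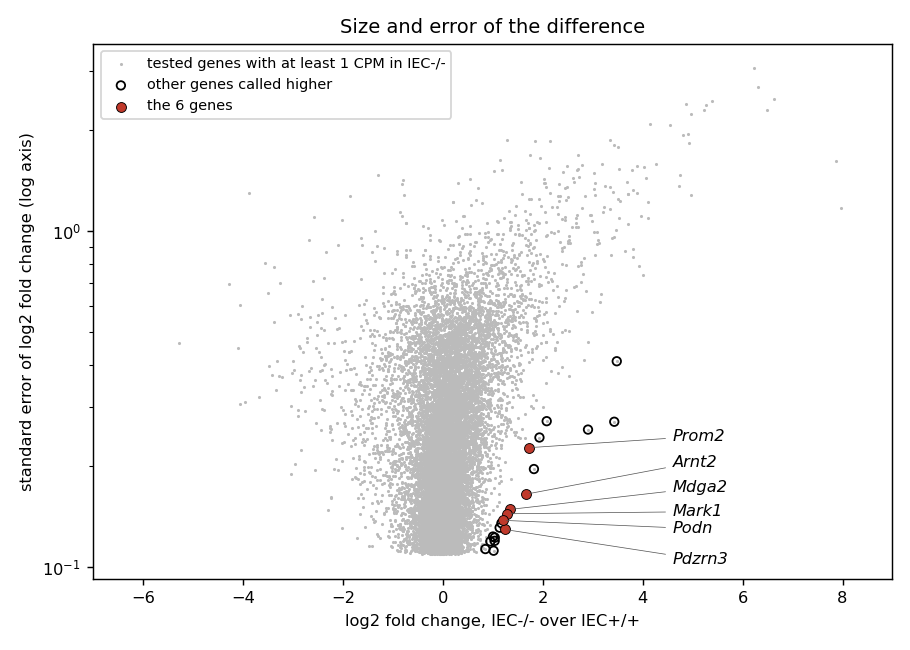
Standard error of the log2 fold change (y axis, log scale) against the log2 fold change of IEC-/- over IEC+/+ (x axis) for tested genes with a mean of at least 1 CPM in the IEC-/- pair. Filled points are the 6 genes, open circles the other 14 genes called higher; many genes lie further right than the 6, at larger errors.

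In all, 20 genes were called higher and 127 lower, together 0.884% of those tested. Among called, named genes without overlap and with at least 1 CPM in the IEC-/- pair, the 6 held places 5 to 10 by fold change. Above them stood Chrm3, the muscarinic receptor M3 (11.2-fold), Alb, which encodes albumin (7.48-fold), Sox2, a transcription factor gene (3.81-fold), and Aox4, an aldehyde oxidase gene (3.53-fold). Mark1 (1.29), Pdzrn3 (1.24) and Podn (1.20) lay just inside the limit of 10 genes by log2 fold change. Just outside lay Cybb, which encodes a subunit of the phagocyte NADPH oxidase (1.13), Robo1, which encodes a receptor for SLIT proteins (1.04), and Prodh, which encodes proline dehydrogenase (1.03). Podn and Cybb thus differed by less than the standard error of either. The remaining called genes were Tbc1d16, Ptn, Zbtb7c and Rnf180, from 1.80-fold to 2.02-fold, and the unnamed models 9530003J23Rik, A730046J19Rik and Gm43305.

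For the promoters of the 6 genes, RefSeq (GRCm38.p6) gave 8 windows of 300 bases, from 250 bases before to 50 after a transcript start, with 2 each for Mark1 and Podn. The windows had 61.3% to 85.7% G+C and 7 to 64 CG dinucleotides, against medians of 52.7% and 7 over 27025 promoter windows. These background windows were the first listed for each gene symbol, while the 6 genes were read over all their windows. The second window of Podn held 7 CG dinucleotides, the same as that median, and the other 7 windows held more. Both strands were searched for letters bound by TCF/LEF, the DNA-binding partners of beta-catenin (ATCAAAG or TTCAAAG), and by AP-1 (TGANTCA). The search also took ACGTG, for HIF with ARNT-type partners, and GCGTG, for AHR with ARNT-type partners. These letters do not cover every form that such factors bind, and they do not tell HIF from AHR. The TCF/LEF and the AP-1 letters were in 0 of the 8 windows, against 8.77% and 7.93% of the background windows. The ACGTG letters were in 2 windows, of Mdga2 and Pdzrn3 (19.7% of the background windows). The GCGTG letters were in 5 windows, which belong to 3 of the 6 genes, Mark1, Pdzrn3 and Podn (32.5% of the background windows). The ACGTG and GCGTG letters each contain a CG dinucleotide. Matches are letters in a window and not sites of binding.

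Shown here are the 250 bases before the transcript start for Mdga2, Pdzrn3 and Podn, in which matches to the ACGTG and GCGTG letters on either strand are in capitals, because Arnt2, a partner in such dimers, is itself one of the 6 genes.
Mdga2 (chr12:67222550-67222799, minus strand): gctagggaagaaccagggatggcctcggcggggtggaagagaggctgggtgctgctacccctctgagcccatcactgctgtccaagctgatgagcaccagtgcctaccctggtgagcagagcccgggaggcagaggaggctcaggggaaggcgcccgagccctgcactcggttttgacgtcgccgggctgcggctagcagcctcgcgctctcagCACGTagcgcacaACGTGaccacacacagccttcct
Pdzrn3 (chr6:101377898-101378147, minus strand): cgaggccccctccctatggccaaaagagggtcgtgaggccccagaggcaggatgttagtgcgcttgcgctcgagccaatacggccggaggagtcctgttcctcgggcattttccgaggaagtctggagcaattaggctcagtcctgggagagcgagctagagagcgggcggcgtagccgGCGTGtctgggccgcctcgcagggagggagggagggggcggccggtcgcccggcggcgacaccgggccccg
Podn (chr4:108031955-108032204, minus strand): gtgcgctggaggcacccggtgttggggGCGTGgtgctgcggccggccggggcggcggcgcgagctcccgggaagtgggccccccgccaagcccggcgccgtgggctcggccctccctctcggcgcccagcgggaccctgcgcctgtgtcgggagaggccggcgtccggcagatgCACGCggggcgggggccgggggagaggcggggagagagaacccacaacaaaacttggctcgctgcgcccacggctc
Pdzrn3 holds its ACGTG match in the 50 bases after the start, which are not printed.

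Coordinates of the genes on GRCm38, the assembly also called mm10, were chr2:127526953-127541417 for Prom2, chr7:84246274-84411741 for Arnt2, chr12:66459419-67222549 for Mdga2, chr1:184896424-184999954 for Mark1, chr6:101149607-101377897 for Pdzrn3 and chr4:108014793-108031954 for Podn. All 6 lie on the minus strand. In GENCODE M21 the exons of Arnt2 share 214 bases with Gm30873 and those of Mdga2 share 1651 bases with Gm19001, both on the opposite strand. Use of strand in the counting is not stated, so reads from these antisense models cannot be told apart from those of Arnt2 and Mdga2.

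Levels per kilobase of exon placed Podn first and Mdga2 last in both groups. The scale is CPM divided by the union of all annotated exons, so a gene with many long isoforms, such as Mdga2 with 18336 bases, is placed low. Podn averaged 21.3 CPM per kilobase in IEC-/- and 9.31 in IEC+/+, and Mark1 16.5 and 6.76. Arnt2 averaged 7.38 in IEC-/- and 2.34 in IEC+/+, Pdzrn3 6.76 and 2.87, Prom2 4.14 and 1.26, and Mdga2 2.37 and 0.936. Arnt2 and Pdzrn3, neighbours in this order, overlapped in IEC-/- (8.10 and 6.66 for Arnt2, 6.94 and 6.58 for Pdzrn3) and not in IEC+/+ (2.18 and 2.51 for Arnt2, 2.91 and 2.83 for Pdzrn3). No other neighbours in the order overlapped within a group.

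Family members and known partners of the 6 genes were then read from the same fit. Over 7 lists, 73 other genes were tested and 0 were called in either direction by edgeR. An unadjusted p under 0.05 was reached by 9 higher and 8 lower genes of the 73, against 7.5% and 9.12% of all genes tested. DESeq2 called 4 higher and 4 lower, against 2.93% and 4.9% of all genes. By limma-voom the count was 0, against 0.0601% higher and 0.409% lower of all genes, and without the low-count filter or with the replicate number as a block 1 was called lower in each. The median log2 fold change of the 73 was -0.05, against 0.01 over all genes tested. Groups did not overlap with IEC-/- higher for 27.4% of the 73, against the 24.0% of all genes, and with IEC-/- lower for 24.7%, against 24.1% of all genes.

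**Figure D3:**
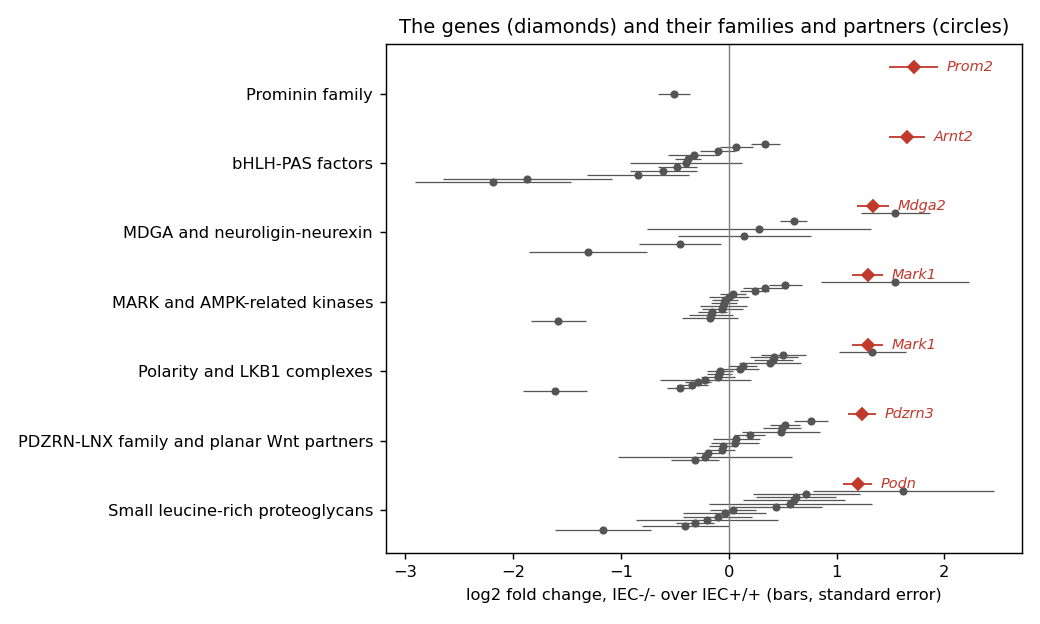
Log2 fold change of IEC-/- over IEC+/+ (x axis) with its standard error for each of the 6 genes (diamonds) and for the tested members of its family or partner lists (circles), 1 row per list; Mark1 is drawn in 2 rows. The diamonds lie at 1.20 to 1.71, and the circles lie on both sides of 0 in every row with more than 1 circle; Pdzrn4, with no count in IEC+/+, is not drawn.

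Prom1, the other prominin and a known stem and progenitor cell surface marker, had 247 and 231 CPM in the IEC-/- pair, against 302 and 379 CPM in the IEC+/+ pair (log2 fold change -0.51, SE 0.15, edgeR adjusted p = 0.197). Its groups did not overlap, and DESeq2 called it lower. Prom1 was far more abundant than Prom2 in every library. Per kilobase, Prom2 stood at 0.117 and 0.132 times the level of Prom1 in the IEC-/- libraries, against 0.0334 and 0.0211 times in the IEC+/+ libraries. Whether the difference of Prom2 departs from that of Prom1 was not tested, as Prom2 was chosen for its own.

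In the bHLH-PAS list, Arnt, the general partner subunit that Arnt2 resembles, had 61.0 and 55.5 CPM in the IEC-/- pair, against 62.0 and 49.1 CPM in the IEC+/+ pair (log2 fold change 0.07, SE 0.15, edgeR adjusted p = 0.877). The 2 groups of Arnt overlapped. Per kilobase Arnt2 equalled 1.06 and 0.960 times Arnt in the IEC-/- libraries, against 0.281 and 0.409 times in the IEC+/+ libraries. Arnt2 was chosen for its own difference, so these ratios are a description only. Of the 11 genes tested in this list 9 had lower means in IEC-/- and the median was -0.39. No possible partner of Arnt2 in the list was called by edgeR (unadjusted p under 0.05 for 1 higher and 3 lower genes, no call by DESeq2). Hif1a, the hypoxia-inducible subunit, had 206 and 278 CPM in the IEC-/- pair and 315 and 358 CPM in the IEC+/+ pair (-0.48, SE 0.18, adjusted p = 0.276). Epas1, its relative, had 78.4 and 84.8 CPM in the IEC-/- pair and 111 and 101 CPM in the IEC+/+ pair (-0.38, SE 0.12, adjusted p = 0.229). Ahr, the aryl hydrocarbon receptor gene, was the only one of the 11 with both IEC-/- libraries higher, at 74.8 and 78.7 CPM, against 65.9 and 55.4 CPM in the IEC+/+ pair (0.34, SE 0.13, adjusted p = 0.295). Without overlap, 1 of the 11 was thus higher and 6 were lower, against 24.0% and 24.1% of all genes. The neuronal partner gene Npas4 had 0.144 and 0.229 CPM in the IEC-/- pair, against 1.16 and 0.568 CPM in the IEC+/+ pair. Sim1 had no count in any library, and Sim2 reached 0.108 CPM in 1 of them.

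Mdga1, the closest relative of Mdga2, was scarce, at 2.34 and 1.79 CPM in the IEC-/- pair and 2.82 and 2.84 CPM in the IEC+/+ pair (log2 fold change -0.45, SE 0.38, edgeR adjusted p = 0.621). Of the neuroligins that MDGA proteins bind, Nlgn2 was the abundant one, with 125 and 124 CPM in the IEC-/- pair, against 76.4 and 86.9 CPM in the IEC+/+ pair (0.60, SE 0.12, adjusted p = 0.104). Its groups did not overlap, although it was not called by edgeR. Nlgn3 had 0.540 and 0.381 CPM in the IEC-/- pair, against 1.24 and 1.06 CPM in the IEC+/+ pair, and Nlgn1 was at or under 0.144 CPM in each library. Among neurexins, the presynaptic partners of neuroligins, Nrxn3 had 8.09 and 6.52 CPM in the IEC-/- pair, against 2.74 and 2.27 CPM in the IEC+/+ pair (1.54, SE 0.32, adjusted p = 0.106). No gene of this list was called by edgeR (unadjusted p under 0.05 for 2 higher genes), and DESeq2 called 2 higher.

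No other gene of the MARK and AMPK-related list was called by edgeR (unadjusted p under 0.05 for 1 higher and 1 lower gene, DESeq2 calls of 0 higher and 1 lower). Mark2 had 166 and 149 CPM in the IEC-/- pair, against 163 and 162 CPM in the IEC+/+ pair (log2 fold change -0.05, SE 0.12, edgeR adjusted p = 0.902), and Mark3 had 87.4 and 89.2 CPM in the IEC-/- pair, against 81.5 and 90.3 CPM in the IEC+/+ pair (0.04, SE 0.12, adjusted p = 0.91). Mark4 had 45.7 and 41.7 CPM in the IEC-/- pair, against 39.2 and 34.7 CPM in the IEC+/+ pair (0.24, SE 0.13, adjusted p = 0.448). These fold changes were small beside the 1.29 of Mark1, but the differences between the kinases were not tested. Per kilobase Mark1 stood at 1.99 and 1.64 times Mark3 in the IEC-/- libraries, against 0.847 and 0.688 times in the IEC+/+ libraries. The order of Mark1 and Mark3 was thus opposite in the 2 groups, and so was that of Mark1 and Mark4 (ratios of 1.83 and 1.69 in IEC-/-, against 0.847 and 0.861 in IEC+/+). Mark1 was chosen for its own difference, so these orders are given as a description only. Mark2 was the highest of the 4 in every library.

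Upstream and downstream of MARK kinases, Stk11, which encodes LKB1, had 112 and 104 CPM in the IEC-/- pair, against 113 and 116 CPM in the IEC+/+ pair (log2 fold change -0.09, SE 0.12, edgeR adjusted p = 0.774). Of the 15 genes of the polarity and LKB1 list edgeR called 0, with an unadjusted p under 0.05 for 1 higher and 2 lower genes, and DESeq2 called 1 higher and 2 lower. Without overlap, 6 of the 15 were higher and 5 lower, against 24.0% and 24.1% of all genes. The list includes the genes of MARK substrates. Mapt, which encodes tau, had 2.88 and 2.52 CPM in the IEC-/- pair, against 7.68 and 8.85 CPM in the IEC+/+ pair (-1.61, SE 0.30, adjusted p = 0.0838). Map2 had 6.26 and 6.25 CPM in the IEC-/- pair, against 2.66 and 2.31 CPM in the IEC+/+ pair (1.33, SE 0.31, adjusted p = 0.132). Map4, the abundant substrate gene, had 200 and 215 CPM in the IEC-/- pair, against 250 and 194 CPM in the IEC+/+ pair, with overlapping groups. In the kinase list Prkaa2, which encodes a catalytic subunit of AMPK, had 26.9 and 18.3 CPM in the IEC-/- pair, against 78.6 and 56.4 CPM in the IEC+/+ pair (-1.58, SE 0.25, adjusted p = 0.0658). It was the gene called lower without the low-count filter and with the replicate block.

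Pdzrn4, the nearest relative of Pdzrn3, was counted 37 and 27 times in the IEC-/- libraries and 0 times in both IEC+/+ libraries. Its mean of 1.18 ± 0.213 CPM in the IEC-/- pair (SD, n = 2) was at least 10.3-fold higher than the 0.115 CPM that 3 counts per library would give in IEC+/+ (edgeR adjusted p = 0.0731, not called). Pdzrn4 was low even in IEC-/-, where Pdzrn3 was 24.7 and 30.2 times as abundant per kilobase. The more distant ligase genes Lnx1 and Lnx2 had log2 fold changes of 0.07 (SE 0.21) and -0.06 (SE 0.13), with overlapping groups. Per kilobase Pdzrn3 was at 1.19 and 1.38 times Lnx1 in the IEC-/- libraries, against 0.650 and 0.505 times in the IEC+/+ libraries. The choice of Pdzrn3 for its own difference favours such an order.

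Among the partners in planar Wnt signalling, Vangl2, a core planar polarity gene, had 88.1 and 69.3 CPM in the IEC-/- pair, against 44.1 and 48.5 CPM in the IEC+/+ pair (log2 fold change 0.77, SE 0.16, edgeR adjusted p = 0.104). Vangl1 had 40.3 and 46.7 CPM in the IEC-/- pair, against 31.0 and 29.6 CPM in the IEC+/+ pair (0.52, SE 0.14, adjusted p = 0.164). Dvl3, the dishevelled gene whose product PDZRN3 is known to ubiquitinate, had overlapping groups (0.19, SE 0.15, adjusted p = 0.578), as did Ror2 and Celsr1. Musk, the muscle receptor kinase gene, was at or under 1.31 CPM in every library. Of the 13 genes tested in this list 4 had both IEC-/- libraries higher, near the 24.0% of all genes, and 1, the ligand gene Wnt5a, had both lower (83.8 and 85.9 CPM in the IEC-/- pair, against 98.3 and 95.7 CPM in the IEC+/+ pair). The 4 with higher libraries were Pdzrn4, Dvl2, Vangl1 and Vangl2, the same 4 that had an unadjusted p under 0.05, of which edgeR called 0 and DESeq2 1.

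The abundant proteoglycans of the same class as Podn were not called. Dcn, which encodes decorin, had 288 and 295 CPM in the IEC-/- pair, against 420 and 304 CPM in the IEC+/+ pair (log2 fold change -0.31, SE 0.18, edgeR adjusted p = 0.455). Bgn, which encodes biglycan, had 263 and 216 CPM in the IEC-/- pair, against 275 and 191 CPM in the IEC+/+ pair (0.04, SE 0.21, adjusted p = 0.955). Lum, which encodes lumican, had 12.0 and 8.12 CPM in the IEC-/- pair, against 31.7 and 13.7 CPM in the IEC+/+ pair (-1.17, SE 0.45, adjusted p = 0.284). Per kilobase Podn was at 0.426 and 0.428 times Dcn in the IEC-/- libraries, against 0.141 and 0.162 times in the IEC+/+ libraries. Podn was likewise chosen for its own difference, which favours such an order. Podnl1, the podocan-like gene, had 7.84 and 4.54 CPM in the IEC-/- pair, against 4.01 CPM in each IEC+/+ library (0.62, SE 0.37, adjusted p = 0.472). Of the 13 proteoglycan genes tested 7 had higher and 6 lower means, with a median of 0.04 (unadjusted p under 0.05 for 0 higher and 1 lower gene, no call by DESeq2). Kera and Epyc had no counts, and Ogn and Prelp were highest in IEC-/- replicate 1.

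**Figure D4:**
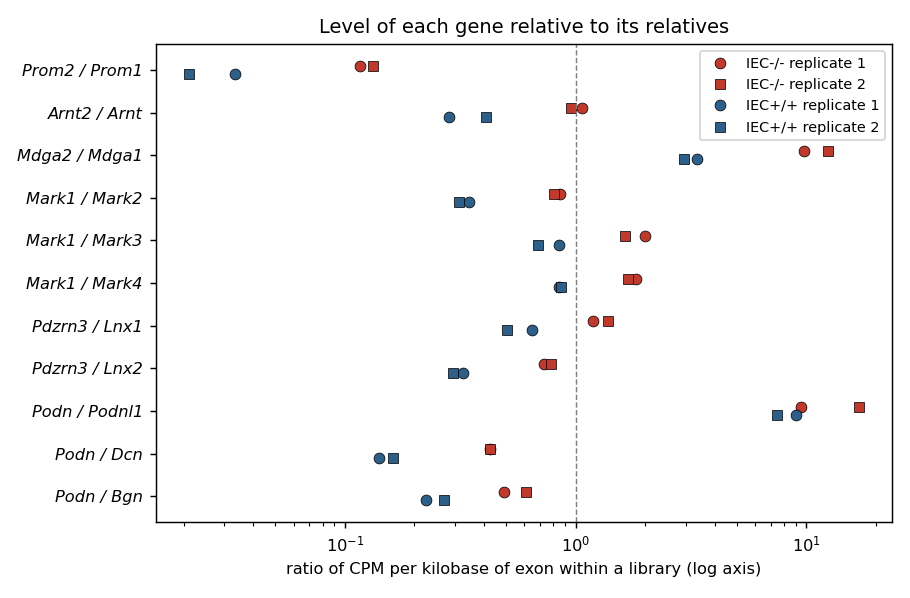
Ratio of the level of each gene to that of a relative within 1 library, as CPM per kilobase of exon (x axis, log scale), with 1 row per pair and a point per library. The ratios of the IEC-/- libraries lie right of those of the IEC+/+ libraries in all 11 rows. The numerator genes were selected for higher IEC-/- libraries, which favours this order, and some of them recur in several rows. Pdzrn4, with no count in IEC+/+, is not drawn. Arnt2 reaches the level of Arnt (ratios of 1.06 and 0.960) in IEC-/-.

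The cells behind the 6 genes were approached through 25 marker lists. In bulk tissue, fewer cells of a type and less RNA per cell cannot be told apart. Of the 141 marker genes tested 0 were called higher and 6 lower by edgeR (unadjusted p under 0.05 for 19 higher and 30 lower genes, DESeq2 calls of 8 and 21, limma-voom calls of 0 and 3). Over all genes, edgeR called 0.12% higher and 0.763% lower, an unadjusted p under 0.05 was reached by 7.5% and 9.12%, DESeq2 called 2.93% and 4.9%, and limma-voom called 0.0601% and 0.409%. The 6 were Krt20, Aqp8, Slc5a8, Clca4a, Fcgbp and Tff3, genes of mature absorptive and goblet cells. By their summed level per library, 8 lists were higher in both IEC-/- libraries, 7 were lower in both and 10 overlapped. Epcam, an epithelial surface marker that fits the tissue label, stood at 1270 and 1045 CPM in the IEC-/- pair and 1398 and 1444 CPM in the IEC+/+ pair.

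Fibroblast, smooth muscle and pericyte marker sums overlapped between the groups. The 10 fibroblast markers summed to 2463 and 2115 CPM in the IEC-/- pair, against 3735 and 2288 CPM in the IEC+/+ pair. Their median log2 fold change was -0.40, with 9 of 10 means lower in IEC-/- and 2 of 10, Dcn and Lum, lower without overlap, near the 24.1% of all genes. The 9 smooth muscle markers summed to 270 and 282 CPM in the IEC-/- pair, against 509 and 212 CPM in the IEC+/+ pair (median -0.60). Without IEC+/+ replicate 1 the median was 0.24 for smooth muscle and 0.015 for fibroblasts. Without IEC+/+ replicate 2 it was -1.15 for smooth muscle and -0.75 for fibroblasts. IEC+/+ replicate 1 was highest in both lists. Of the 6 genes 5, all but Arnt2, were also higher in that library, at 1.03 (Pdzrn3) to 1.26 (Prom2) times IEC+/+ replicate 2. Over all tested genes the median log2 of replicate 1 over replicate 2 in IEC+/+ was 0.009, so either order was common. Any part of these cells in the levels of the 6 genes was not tested. The 7 pericyte markers summed to 256 and 232 CPM in the IEC-/- pair, against 272 and 215 CPM in the IEC+/+ pair. The 6 adventitial fibroblast markers had higher sums in the IEC-/- libraries (223 and 196 CPM, against 160 and 142 CPM in the IEC+/+ libraries), but their median log2 fold change was 0.05. C3 alone had 135 and 104 CPM in the IEC-/- pair, against 71.1 and 66.5 CPM in the IEC+/+ pair. Without overlap, 2 of the 6 were higher (C3 and Grem1) and 1 lower (Ackr4), against 24.0% and 24.1% of all genes. Skeletal muscle, another tissue in which Pdzrn3 is known to act, was nearly absent, with 2.91 and 4.0 CPM over 7 markers in IEC-/-, 4.79 and 4.47 CPM in the IEC+/+ pair, and no count of Myh1 or Myh4.

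Endothelial marker sums were higher in both IEC-/- libraries, with no gene called by edgeR (unadjusted p under 0.05 for 1 blood and 3 lymphatic genes, DESeq2 calls of 0 and 1). The 8 blood endothelial markers summed to 277 and 259 CPM in the IEC-/- pair, against 224 and 218 CPM in the IEC+/+ pair (median log2 fold change 0.23, with 3 of 8 higher without overlap, Cdh5, Tek and Vwf). All 5 lymphatic markers were higher in both IEC-/- libraries, where 24.0% of all genes were, with a median of 0.59. Mmrn1, which encodes a multimerin of lymphatic endothelium, had 24.5 and 22.9 CPM in the IEC-/- pair, against 11.4 and 10.1 CPM in the IEC+/+ pair (1.14, SE 0.19, edgeR adjusted p = 0.0722). Prox1 made up most of the lymphatic sum, at 960 and 608 CPM in the IEC-/- pair and 549 and 492 CPM in the IEC+/+ pair, and is also known as a gene of intestinal tumour epithelium. The part of these cells in the level of Pdzrn3, a gene known from endothelium, was not tested.

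Neural markers were scarce in all libraries, although Arnt2, Mdga2 and Mark1 are best known from the nervous system. The 12 enteric neuron markers summed to 33.9 and 24.4 CPM in the IEC-/- pair, against 43.4 and 45.8 CPM in the IEC+/+ pair. These sums included the growth factor receptor gene Ret (16.3 and 4.54 CPM in the IEC-/- pair, against 29.4 and 33.2 CPM in the IEC+/+ pair). The median log2 fold change of the 7 tested neuron markers was 0.26. Without overlap, 3 of them were higher (Uchl1, Snap25 and Syt1) and 1 lower (Ret), against 24.0% and 24.1% of all genes. Elavl4, Chat and Prph, defining neuronal genes, were at or under 0.360 CPM in each library. The 7 enteric glia markers summed to 11.8 and 24.8 CPM in the IEC-/- pair, against 9.07 and 9.01 CPM in the IEC+/+ pair. Sox10, S100b and Gfap, the defining genes of glia, were at or under 0.343 CPM in every library. No neuronal or glial marker was called by edgeR (unadjusted p under 0.05 for 1 higher and 1 lower neuronal gene, DESeq2 calls of 0 higher and 1 lower). Syt1, which encodes a synaptic vesicle protein, had 8.81 and 4.77 CPM in the IEC-/- pair, against 2.55 and 3.82 CPM in the IEC+/+ pair.

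Of epithelial markers, those of mature cells held all 6 called genes, 3 of colonocytes, 2 of goblet cells and 1, Krt20, of the general list. The 8 general epithelial markers summed to 5293 and 4891 CPM in the IEC-/- pair, against 8397 and 7384 CPM in the IEC+/+ pair, and 7 of 8 were lower without overlap, where 24.1% of all genes were. The 7 colonocyte markers summed to 65.6 and 76.3 CPM in the IEC-/- pair, against 653 and 325 CPM in the IEC+/+ pair (median log2 fold change -4.29), and the 7 goblet cell markers to 542 and 1106 CPM in the IEC-/- libraries, against 5435 and 3237 CPM in the IEC+/+ libraries (-1.69). The 7 crypt stem cell markers summed to 1587 and 1357 CPM in the IEC-/- pair, against 920 and 1019 CPM in the IEC+/+ pair (median 0.63). No crypt marker was called by edgeR (unadjusted p under 0.05 for 4, DESeq2 calls of 4). All 7 had higher means in IEC-/-, and 4 of 7, Lgr5, Smoc2, Axin2 and Mex3a, had no overlap, where 24.0% of all genes were higher without overlap. The tuft cell sum was 138 and 135 CPM in the IEC-/- pair, against 92.3 and 110 CPM in the IEC+/+ pair, nearly all of it Avil. The 8 enteroendocrine markers summed to 69.5 and 64.0 CPM in the IEC-/- pair, against 102 and 76.6 CPM in the IEC+/+ pair. These sums were separated in the same libraries as the 6 genes, and their part in the 6 genes' levels was not tested.

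Several marker lists, squamous markers among them, differed widely between the IEC-/- libraries. The squamous markers Krt5 and Trp63 had 795 and 34.0 CPM in IEC-/- replicate 2, against 0 and 0.0719 CPM in IEC-/- replicate 1. Prom2, a gene known from several epithelia, had 22.1 CPM in the first of these libraries and 20.9 CPM in the second. Without IEC-/- replicate 2 the log2 fold change of Prom2 was 1.67, and those of the other genes were 1.78 (Arnt2), 1.36 (Mdga2), 1.40 (Mark1), 1.27 (Pdzrn3) and 1.17 (Podn). The median of the squamous list was 2.66 with that library (0.71 by limma-voom) and -2.41 without it. Prom2 and the genes given with it were chosen for groups without overlap and a small error. That choice favours steady values when a library is left out. Any part of squamous cells in the levels of these genes was not tested. Neutrophil markers had their highest sum in IEC-/- replicate 2 (338 CPM, with 86.2 CPM in replicate 1, against 53.3 and 138 CPM in the IEC+/+ pair). Macrophage markers summed to 453 and 356 CPM in the IEC-/- pair, against 352 and 273 CPM in the IEC+/+ pair, and Cybb, which is expressed by phagocytes, was among the called genes.

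**Figure D5:**
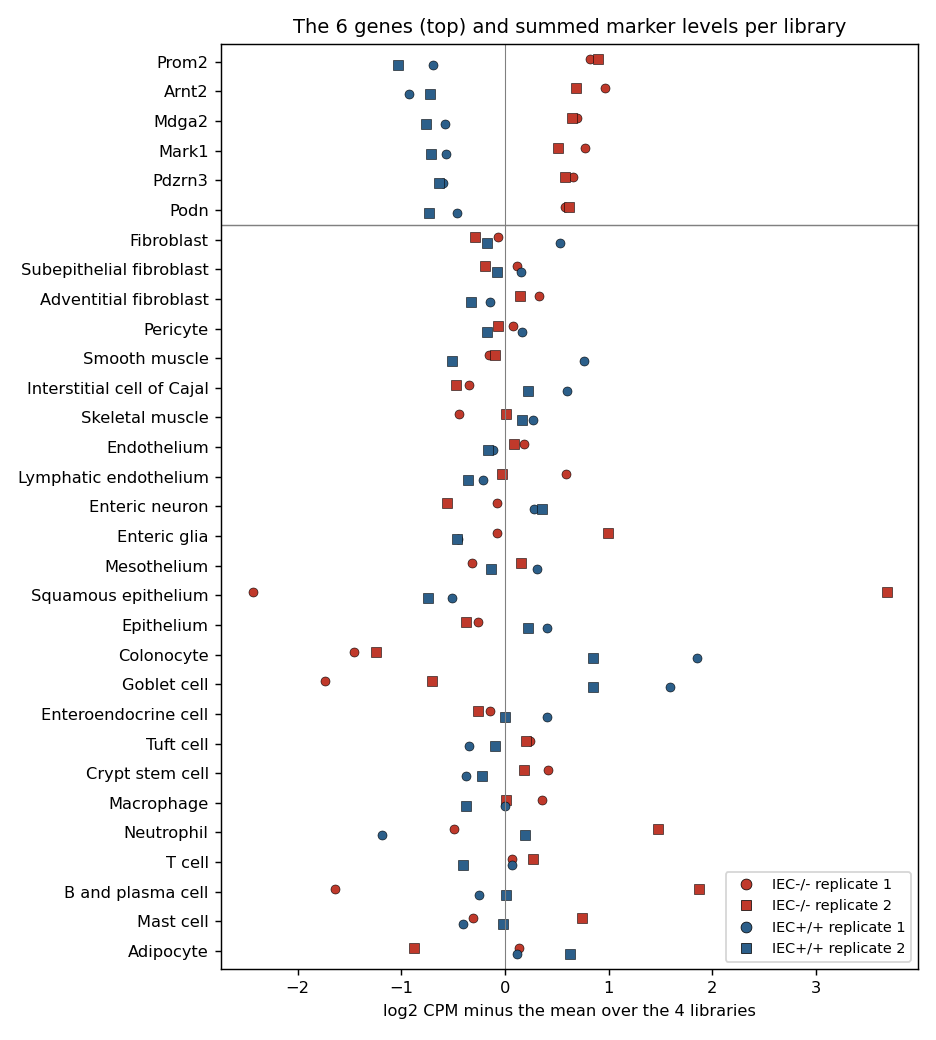
Log2 CPM of each of the 6 genes (top) and log2 of the summed CPM of 25 marker lists (below), each minus its mean over the 4 libraries (x axis), with a point per library. The 6 genes show tight pairs with IEC-/- on the right, which their selection favours. Squamous and B and plasma cell markers place IEC-/- replicate 2 far right of IEC-/- replicate 1, with IEC+/+ between them.

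Patterns over the 4 libraries were compared by the root mean square difference of log2(CPM + 0.5), centred for each gene. With 4 libraries in 2 groups, such a measure mostly reads the size of the group difference, and it is given as a description over 14090 candidate genes. Mdga2, Mark1, Pdzrn3 and Podn were close to each other, at 0.07 to 0.12 log2 units, and Prom2 and Arnt2 lay 0.18 to 0.29 from every other gene of the 6. Podn was most like Pygo1, a beta-catenin coactivator gene (0.033), Inka1 (0.034) and Map2 (0.036). Pygo1 had 9.35 and 9.68 CPM in the IEC-/- pair, against 4.05 and 3.48 CPM in the IEC+/+ pair, and was also first for Mdga2 (0.053), ahead of Map2 (0.069) and the homeobox gene Hoxd4 (0.076). Mark1 was most like Cep112os1 and Hoxd4 (0.049 each) and the neurexin gene Nrxn3 (0.060). Pdzrn3 was most like Tubg2, a gamma-tubulin gene (0.039), Map2 (0.057) and Cep112os1 (0.062). Arnt2 was most like Pak3, a p21-activated kinase gene (0.047), Sntb1, a syntrophin gene (0.089), and Sox2 (0.124). Prom2 was nearest to Aox4 (0.109), and among its 3 nearest was also Anpep, which encodes aminopeptidase N (0.155). Of these genes Aox4 and Sox2 were called higher. With log2(CPM + 2), 5 of the 18 names came up again, so most names depend on the pseudocount.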

How the data were processed

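The authors deposited whole-number read counts per gene symbol for each library, with no normalization. The submitters' processing notes name TopHat, edgeR, limma and the mm10 build, without roles; the counting tool, annotation and strand use are not stated there or in the labels. Groups and replicate numbers came from the sample titles. Counts were fitted with edgeR 4.0.16 (R 4.3.3): default expression filter, TMM scaling, with IEC-/- set against IEC+/+ by the quasi-likelihood F-test, adjusted by Benjamini-Hochberg over the 16637 genes kept and called at 0.05. The test was also run on counts simulated with the dispersions fitted to these libraries, which cannot check those dispersions. The outcome is not reported here. Levels are CPM of the scaled library sizes, and standard errors were derived from the F statistic. No library repeated another, with chi-square per degree of freedom of 34.9 to 134 between pairs. The 6 genes, the 32 lists and the tests were chosen with earlier results of these data known. Of 243 listed genes 242 were found (Bmal2 was not matched). Named genes were the 6, Gsk3b, genes called higher, the 3 nearest in pattern to each of the 6, and list members. Alternatives were DESeq2 1.42.0 and its size factors, limma-voom (limma 3.58.1), no filter, a replicate block, each library left out and, for patterns, a pseudocount of 2. A few genes of the lists and of the nearest patterns are not reported here.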

Additional observations from a re-analysis of the deposited data

How the results depend on the processing

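The count of genes called, 147, was 376 without the low-count filter, 1303 by DESeq2, 78 by limma-voom and 211 with the replicate block, and ran from 0 to 729 with 1 library left out. It was 0 without IEC+/+ replicate 1 (1384 genes at an unadjusted p under 0.05) and without IEC+/+ replicate 2 (1754), and 729 and 567 without IEC-/- replicates 1 and 2. Genes called higher, 20, numbered 69 without the filter, 488 by DESeq2, 10 by limma-voom and 38 with the block. List genes called, 6, were 14, 37, 3 and 11 under the same 4 settings, and 0 to 29 with 1 library left out, with 0 when either IEC+/+ library was absent. The 6 genes kept a positive log2 fold change throughout, as groups that do not overlap must, and their median of 1.31 lay between 1.23 and 1.40. All 6 were called by DESeq2, with its size factors, without the filter and without either IEC-/- library, and 0 without either IEC+/+ library (6 at an unadjusted p under 0.05 in each). By limma-voom Prom2 (adjusted p = 0.0555) and Mark1 (0.0535) were not called, and with the replicate block Prom2 was not (0.0575). The deviations of same-numbered libraries correlated at 0.16 over 2 pairs, and the labels do not say that a number marks a shared litter, batch or day, so the numbers are not read as pairs. With 1 library left out, 2 to 9 of the 32 list medians moved by more than the spread between replicates, and 3 to 7 changed sign. With 2 libraries per group, depth limits the rare markers and relatives more than the 6 genes.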
